A study of Saccharomyces cerevisiae with 24 samples.

Results

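The histone genes of budding yeast were located in the annotation that the authors built for W303, the laboratory strain used in the study. Members were the gene features whose gene name was HTA1, HTB1, HTA2, HTB2, HHT1, HHF1, HHT2, HHF2, HTZ1 or HHO1, and each of the 10 names had 1 feature, which gave 10 of 5630 gene features. The study mapped by ChIP-seq where Uls1, an ATP-dependent chromatin remodelling enzyme, and Top2, the type II topoisomerase, lie on chromosomes, with and without acriflavine (ACF), a DNA intercalator. It comprised 24 libraries in 12 groups of 2, with IP and input as separate groups, and ChIP samples were pooled before sequencing. FLAG-Uls1 was recovered from cells labelled WT grown in YPD without drug or with 100 µM ACF for 2 h, and Top2-HA from cells labelled WT and from uls1Δ cells without drug or with 250 µM ACF for 2 h. All strains were W303 derivatives with ade2, trp1, his3, ura3, leu2 and can1 marker alleles and the functional RAD5 gene. The FLAG-Uls1 strain was made by putting tagged ULS1 and a TRP1 marker back into a uls1 deletion strain. Top2 was tagged on an additional copy of the gene under its own promoter, so untagged Top2 was present too, and these strains carry a NAT cassette upstream of TOP2. The file analysed holds positions, strands and notes, with no ChIP signal, so no binding of Uls1 or Top2 at a histone gene was analysed and the values below have no replicate error. Where sequence was needed, the S288C reference genome (RefSeq, R64) was used in its own coordinates.

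Histones are the small basic proteins around which DNA is wrapped. A nucleosome core holds a tetramer of H3 and H4 and a pair of H2A-H2B dimers, so the 4 core histones are needed in matched amounts. In budding yeast the core histone genes lie as divergent pairs, an H2A gene beside an H2B gene or an H3 gene beside an H4 gene, and each pair is transcribed outwards from a shared promoter as cells enter S phase. HTZ1 encodes H2A.Z, the H2A variant that the SWR1 complex places beside promoters, and HHO1 encodes the linker histone H1.

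The 4 core pairs were present in W303 in the divergent layout, on 3 of the 5 chromosomes that hold a histone gene. For H2A and H2B, HTB1 (YDR224C, chr4:918008-918403, minus strand) lay beside HTA1 (YDR225W, chr4:919221-919619, plus strand). HTA2 (YBL003C, chr2:237193-237591, minus strand) lay beside HTB2 (YBL002W, chr2:238291-238686, plus strand). For H3 and H4, HHF1 (YBR009C, chr2:257171-257482, minus strand) lay beside HHT1 (YBR010W, chr2:258130-258540, plus strand). HHT2 (YNL031C, chr14:590319-590729, minus strand) lay beside HHF2 (YNL030W, chr14:591406-591717, plus strand). Within each pair type the histone on the plus strand was not fixed. The plus strand gene was the H2A gene in HTB1-HTA1 and the H2B gene in HTA2-HTB2, and it was the H3 gene in HHF1-HHT1 and the H4 gene in HHT2-HHF2. Outside the pairs, HTZ1 (YOL012C) was at chr15:303854-304258 and HHO1 (YPL127C) at chr16:479346-480122, both on the minus strand.

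Histone genes were short and of the S288C length. The H4 genes were 312 bp, the H2B genes 396 bp, the H2A genes 399 bp, HTZ1 405 bp and the H3 genes 411 bp, stop codon included, and HHO1 was 777 bp. These lengths give proteins of 103, 131, 132, 134, 136 and 258 residues. Of the 5613 ORFs on the 16 nuclear chromosomes, 4.69% were shorter than an H4 gene, 8.46% were shorter than an H3 gene and 26.4% were shorter than HHO1. The size note read "same" for all 10 genes, and all 10 also matched the S288C length when it was computed here, beside 90.5% of the 5584 nuclear ORFs that could be matched by name. The 10 genes are each a single uninterrupted coding sequence in S288C. A strand was given for all 10, as for most of the 5613 nuclear ORFs, of which 168 had none. CSE4 (YKL049C), which encodes the H3 variant of centromeres and is not a member, was 690 bp at chr11:354229-354918 and also matched S288C in length.

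The gene copies encode nearly the same proteins from coding sequences that differ. The H3 proteins of HHT1 and HHT2 were identical over 136 of 136 residues and the H4 proteins of HHF1 and HHF2 over 103 of 103. The H2A proteins of HTA1 and HTA2 shared 130 of 132 residues (98.5%), with the differences at positions 125 and 126, near the C-terminal end. The H2B proteins of HTB1 and HTB2 shared 127 of 131 residues (96.9%), with the differences at positions 3, 4, 28 and 36, in the N-terminal part (positions counted from 1 at the initiator methionine). The variants were further apart. HTZ1 matched either H2A at 80 of 139 alignment columns (57.6%), and CSE4 matched HHT1 at 72 of 234 columns (30.8%), a low share because CSE4 has 229 residues and the columns include its long N-terminal extension. These sequences are of S288C, since no W303 sequence was used here.

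The first 120 bases of the 8 core genes show how the copies differ. Each is printed 5′ to 3′ along the coding strand from the start codon, from S288C R64, and capitals mark the bases at which the copies of that histone differ.
HTA1, chr4:915530-915649, plus strand: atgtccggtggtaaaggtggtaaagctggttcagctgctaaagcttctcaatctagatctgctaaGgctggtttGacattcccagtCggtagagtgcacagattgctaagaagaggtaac
HTA2, chr2:235673-235792, minus strand: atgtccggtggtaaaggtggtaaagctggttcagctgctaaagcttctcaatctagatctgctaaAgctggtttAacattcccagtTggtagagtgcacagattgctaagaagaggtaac
HTB1, chr4:914593-914712, minus strand: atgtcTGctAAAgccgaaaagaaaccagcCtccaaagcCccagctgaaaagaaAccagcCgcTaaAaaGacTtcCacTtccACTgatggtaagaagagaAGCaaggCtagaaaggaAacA
HTB2, chr2:236492-236611, plus strand: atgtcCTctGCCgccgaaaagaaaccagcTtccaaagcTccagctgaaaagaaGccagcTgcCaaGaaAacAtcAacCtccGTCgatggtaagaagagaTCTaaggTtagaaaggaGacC
HHT1, chr2:256331-256450, plus strand: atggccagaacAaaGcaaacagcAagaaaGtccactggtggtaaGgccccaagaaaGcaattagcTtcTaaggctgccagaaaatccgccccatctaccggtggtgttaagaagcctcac
HHT2, chr14:575931-576050, minus strand: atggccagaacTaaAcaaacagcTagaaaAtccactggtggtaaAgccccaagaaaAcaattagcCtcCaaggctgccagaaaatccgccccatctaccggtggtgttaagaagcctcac
HHF1, chr2:255565-255684, minus strand: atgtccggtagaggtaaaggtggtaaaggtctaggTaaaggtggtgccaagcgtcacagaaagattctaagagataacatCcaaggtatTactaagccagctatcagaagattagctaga
HHF2, chr14:576727-576846, plus strand: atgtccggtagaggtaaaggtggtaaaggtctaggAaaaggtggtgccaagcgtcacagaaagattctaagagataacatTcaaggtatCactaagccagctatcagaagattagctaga
In these stretches the H2B copies differed at 24 bases, the H3 copies at 8, and the H2A and the H4 copies at 3 each. The H2B stretch holds the codons of all 4 residues that differ between HTB1 and HTB2. In the other 3 stretches the capitals are single bases, each at the third place of a codon.

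Most differences between copies were at the third codon position over the whole genes as well. HTA1 and HTA2 differed at 25 of 399 bases (93.7% identical), of which 21 were at the third position. Of their 23 differing codons, 2 change the residue. HTB1 and HTB2 were the least alike, with 48 of 396 bases differing (87.9% identical), 40 of them at the third position, and 4 of 42 differing codons change the residue. HHT1 and HHT2 differed at 28 of 411 bases (93.2% identical), 25 of them at the third position, and all 27 differing codons are synonymous. HHF1 and HHF2 differed at only 8 of 312 bases (97.4% identical), all at the third position. H4 thus had the fewest differing bases and H2B the most.

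**Figure D1:**
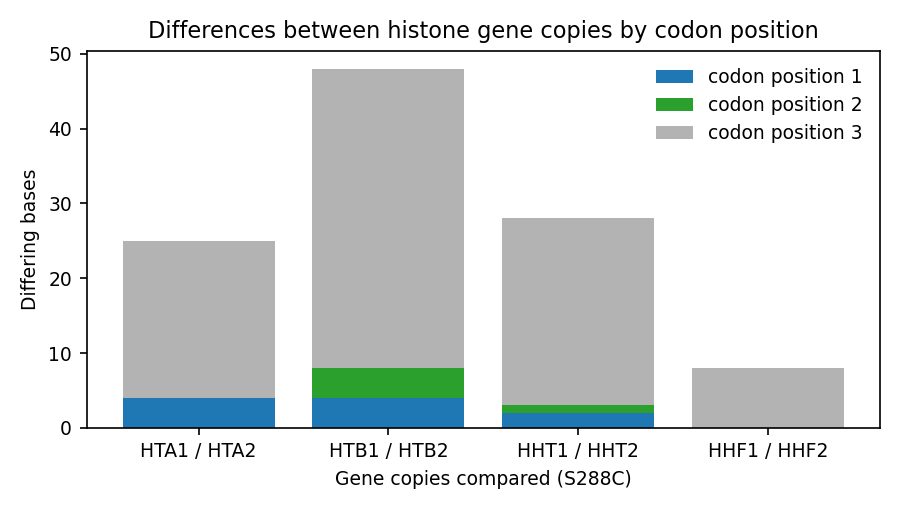
Bars show the number of bases that differ between the copies of each core histone gene in S288C, coloured by codon position. The third position holds 21 of 25 differences for HTA1 and HTA2, 40 of 48 for HTB1 and HTB2, 25 of 28 for HHT1 and HHT2 and 8 of 8 for HHF1 and HHF2.

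Core histone genes used the codons of ribosomal protein genes, which are highly expressed, more often than HTZ1 and HHO1 did. A codon was called preferred when it was the most used synonymous codon of the 113 ribosomal protein genes, whose own median share of preferred codons was 76.2%. The share was 73.6% in HTB1, 73.3% in HTA1, 72.5% in HHF1, 71.1% in HHT1 and 70.6% in HHF2. It was 68.1% in HHT2, 67.2% in HTA2 and 62.0% in HTB2. All 8 values lay far above the median of 38.4% over 5673 nuclear genes (quartiles 35.7% and 42.6%), and between 95.3% and 97.9% of genes had a lower share. HTZ1 reached 41.4% and HHO1 40.4%, inside the quartiles of all genes, and CSE4 38.9%. The place of the variant genes also changed with the reference of all genes, by which HTZ1 (54.1%) was above 90.1% of genes and near HHT1 (57.0%), and HHO1 (31.4%) above 1.83%. In each copy pair the gene on chromosome 4 or in HHF1-HHT1 had the higher share. The difference was 96 against 88 of 131 codons for HTA1 and HTA2, 95 against 80 of 129 for HTB1 and HTB2, 96 against 92 of 135 for HHT1 and HHT2 and 74 against 72 of 102 for HHF1 and HHF2, so it was small in the H3 and H4 pairs. This order depends on the reference. With the most used codons of all nuclear genes as preferred, HTA2 (71.8%) was above HTA1 (68.7%) and HHT2 (63.0%) above HHT1 (57.0%), HHF1 and HHF2 were equal at 62.7%, and HTB1 (63.6%) was still above HTB2 (60.5%). Codons of 1 gene are not independent of each other and no test was made.

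**Figure D2:**
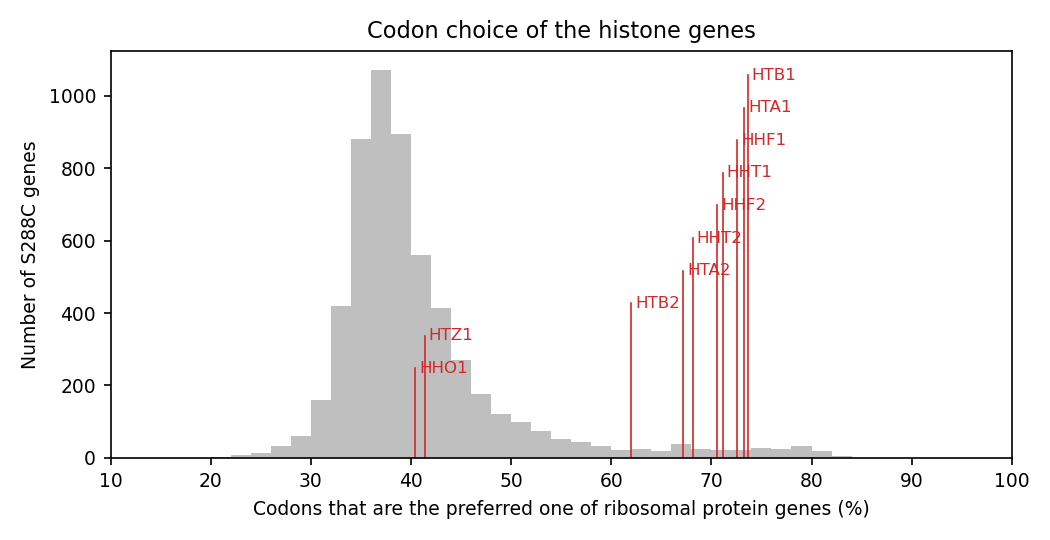
Grey bars show the number of S288C genes by their percentage of codons that are the preferred one of ribosomal protein genes, and red lines mark the 10 histone genes. The 8 core genes lie between 62.0% and 73.6%, in the right tail, and HTZ1 and HHO1 lie at 41.4% and 40.4%, within the bulk of genes.

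The start codons of the core pairs were 647 to 817 bp apart. The gap was 817 bp in HTB1-HTA1, 699 bp in HTA2-HTB2, 676 bp in HHT2-HHF2 and 647 bp in HHF1-HHT1. Over all 1395 adjacent divergent ORF pairs of W303 the median gap was 561 bp (quartiles 304.5 and 870 bp, range 20 to 13924 bp). The core gaps were thus all above the median and below the upper quartile, with 57.3% (HHF1-HHT1), 60.3% (HHT2-HHF2), 62.2% (HTA2-HTB2) and 71.3% (HTB1-HTA1) of divergent gaps being shorter. A whole pair, from stop codon to stop codon, took 1612 bp for HTB1-HTA1, 1494 bp for HTA2-HTB2, 1399 bp for HHT2-HHF2 and 1370 bp for HHF1-HHT1. HTZ1 and HHO1 also had a divergent partner, but one that encodes no histone. HTZ1 faced PLB3, a phospholipase B gene, across 1365 bp, and HHO1 faced NAN1, which encodes a component of the small subunit processome for ribosomal RNA, across 605 bp. A divergent 5′ neighbour was therefore found for 10 of 10 members, beside 52.1% of nuclear ORFs with strands, where the 8 core genes are each other's neighbours and form 4 pairs.

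**Figure D3:**
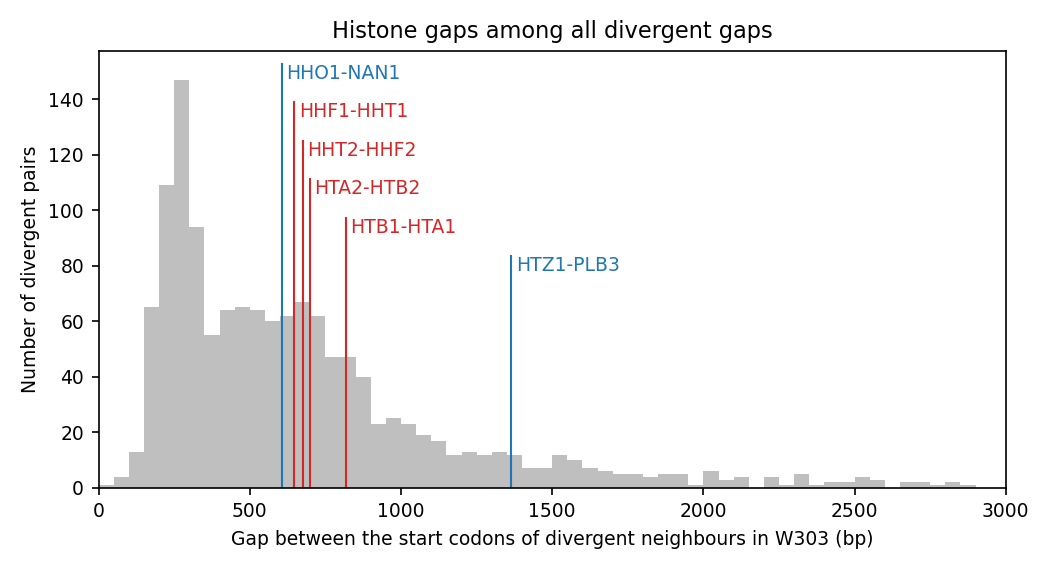
Grey bars show the number of divergent ORF pairs in W303 by the length of the gap between their start codons, up to 3000 bp (43 longer gaps are not drawn). The 4 core histone pairs (red) lie between 647 and 817 bp, HHO1-NAN1 (blue) at 605 bp and HTZ1-PLB3 (blue) at 1365 bp.

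The gaps had the same length in S288C except that of HHF1-HHT1, which was 646 bp there and 647 bp in W303. The study assigned each peak to its closest feature. In each core gap the bases were split evenly between the 2 histone ORFs, with 408 bases nearest to HTB1 and 408 to HTA1, 349 to HTA2 and 349 to HTB2, 323 to HHF1 and 323 to HHT1, and 338 to HHT2 and 338 to HHF2. The middle base was tied in the 3 gaps of odd length, and no base was nearest to another feature. A peak in such a gap would thus take the name of one histone gene by its side of the middle, although the promoter is shared.

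The upstream activating sequence (UAS) of the histone genes is known as the element bound by Spt10, an activator of histone transcription, and it consists of TTCC and TTCNC separated by 6 bases. The word was searched on both strands of the S288C gaps, and matches that overlap were each counted. All 4 core gaps held a match, 2 in HTB1-HTA1 and 1 in each of the others, which gave 5. Of the 1527 divergent gaps of S288C, 4.52% held a match, and of the 349 gaps of 600 to 900 bp, a range that holds all 4 core gaps, 8.6% did. When the fourth letter was left free (TTC and TTCNC separated by 7 bases), the core gaps held 13 matches, 4 in HTB1-HTA1, 4 in HHF1-HHT1, 3 in HTA2-HTB2 and 2 in HHT2-HHF2. With this looser word 17% of divergent gaps held a match. All 4 core gaps had 2 or more, as did 2.23% of divergent gaps, and HTB1-HTA1 and HHF1-HHT1 were the 2 gaps of S288C that had 4 or more. The histone gaps are counted in these shares. Because the word is the known UAS of the histone genes themselves, its presence in the core gaps is not an independent finding. HTZ1-PLB3 held no match to the strict word and 1 to the looser one, and HHO1-NAN1 held none of either.

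The stretches of the 4 core gaps that hold these matches are printed because the matches lie in the middle part of each gap. Each runs 5′ to 3′ along the plus strand of S288C R64, from the minus strand gene towards the plus strand gene, and capitals mark matches to the looser word on either strand.
HTB1-HTA1, chr4:914948-915161, plus strand: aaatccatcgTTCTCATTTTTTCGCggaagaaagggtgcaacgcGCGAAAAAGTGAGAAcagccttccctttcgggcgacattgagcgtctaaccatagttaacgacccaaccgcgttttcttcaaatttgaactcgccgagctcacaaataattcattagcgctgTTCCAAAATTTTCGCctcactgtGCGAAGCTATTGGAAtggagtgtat
HTA2-HTB2, chr2:236075-236194, plus strand: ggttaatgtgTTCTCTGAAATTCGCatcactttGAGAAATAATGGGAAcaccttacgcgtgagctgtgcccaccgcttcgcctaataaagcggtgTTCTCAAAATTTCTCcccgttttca
HHF1-HHT1, chr2:255934-256101, plus strand: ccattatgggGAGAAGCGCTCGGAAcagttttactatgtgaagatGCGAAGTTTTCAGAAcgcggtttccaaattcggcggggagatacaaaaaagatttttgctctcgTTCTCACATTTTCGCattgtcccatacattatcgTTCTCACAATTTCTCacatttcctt
HHT2-HHF2, chr14:576336-576457, plus strand: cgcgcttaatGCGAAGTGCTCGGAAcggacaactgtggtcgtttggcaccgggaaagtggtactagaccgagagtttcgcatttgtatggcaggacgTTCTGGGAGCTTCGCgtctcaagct
A match on the minus strand reads as its reverse complement, so it starts with GNGAA. The 2 strict matches of HTB1-HTA1 read TTCCAAAATTTTCGC on the plus strand and TTCCAATAGCTTCGC on the minus strand. The strict match was TTCCCATTATTTCTC in HTA2-HTB2, TTCCGAGCGCTTCTC in HHF1-HHT1 and TTCCGAGCACTTCGC in HHT2-HHF2, all on the minus strand. The last pair of words, both from gaps between an H3 and an H4 gene, share their first 8 bases. Of these bases, TTCC was fixed in advance by the strict word. Among the 13 matches the fourth letter, left free in the search, was C in 5 and T in 8, and the letter before the last was G in 9 and T in 4, so neither place held an A.

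Matches lay within 156 bp of the middle of each core gap, and the nearest one to a histone start codon was 239 bp away. In HTB1-HTA1 a strict match was centred on the middle of the gap, 401 bp from either gene. Its other matches lay 156 bp and 122 bp before and 23 bp after the middle, so they were more spread out. In HHT2-HHF2 the 2 matches lay 35.5 bp before and 51.5 bp after the middle, in HTA2-HTB2 they lay 50 bp and 27 bp before and 35 bp after it, and in HHF1-HHT1 from 56.5 bp before to 76.5 bp after it. A window of 300 bases (250 before and 50 after the start codon) held a whole match, strict or loose, for 0 of the 10 members. Of the 6002 such windows of S288C genes 1.48% held a strict and 7.88% a loose match, so a count of 0 in 10 is near these shares. The matches nearest to HHT1 and HTB1, at 239 bp and 245 bp, reach across the edge of the window, and the others lie beyond it.

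**Figure D4:**
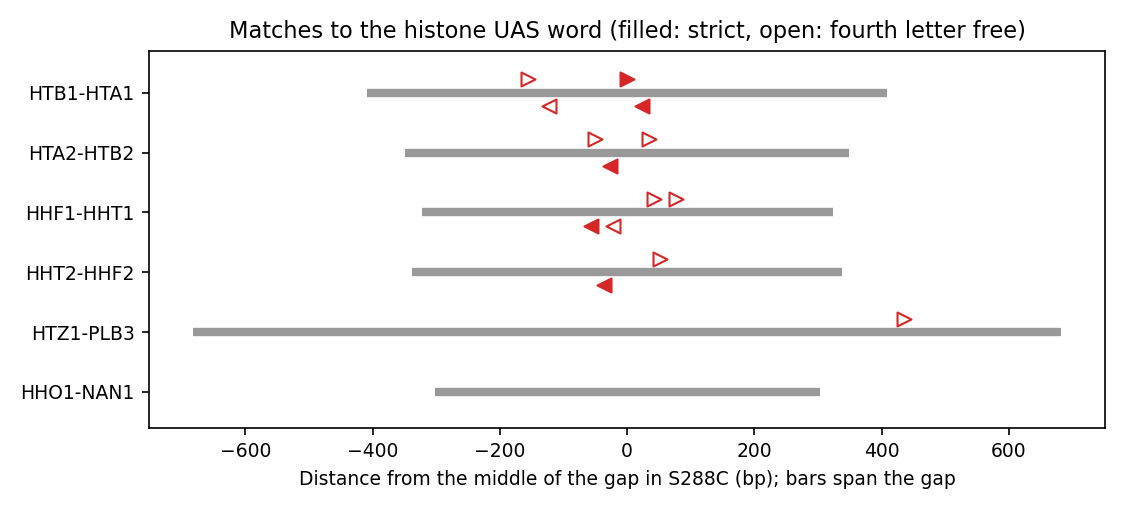
Grey bars span the 6 divergent gaps that border a histone gene in S288C, centred on their middle (bp), and triangles mark UAS matches, pointing right for the plus strand and left for the minus strand, filled for the strict word and open for the looser one. The 13 matches of the 4 core gaps lie within 156 bp of the middle, and the single match in HTZ1-PLB3 lies 436 bp from it.

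Other features of the gaps varied between pairs. The TATA word TATAAA occurred 4 times in HTB1-HTA1, 4 times in HHF1-HHT1 and 2 times in HHT2-HHF2, and not in HTA2-HTB2, beside 60.3% of divergent gaps that held it. HTA2-HTB2 was in turn the one core gap with the word ACGCGT, the element bound by the G1/S factor MBF, which occurred once there and in 6.81% of divergent gaps. It is in lower case in the stretch printed for that gap. The content of A and T was 66.5% in HTA2-HTB2, 63.2% in HTB1-HTA1, 62.5% in HHF1-HHT1 and 57.5% in HHT2-HHF2, against a median of 63.9% over all divergent gaps (quartiles 61.5% and 66.1%). The gap with the lowest content, HHT2-HHF2, also held the longest run of A or of T, which was 12 bases. A match to a word is a description of sequence and not of binding.

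The 3′ ends of the core pairs mostly faced another gene. Of the 8 ends, 6 were convergent with the next ORF, beside 52.1% of nuclear ORFs with strands. HTB1 faced CRF1, a corepressor of ribosomal protein genes, across 814 bp. HTA2 faced UTP20, a component of the small subunit processome, across 276 bp, and HTB2 faced ECM15 across 265 bp. HHT1 faced IPP1, the cytoplasmic inorganic pyrophosphatase, across 371 bp. HHF2 faced KTR5, a putative mannosyltransferase, across 166 bp. HHT2 faced SIW14, a phosphatase of inositol pyrophosphates, across a gap longer than that of HTA2-UTP20 and shorter than that of HHT1-IPP1. The 2 exceptions were in tandem. HTA1 was followed by ADK1, adenylate kinase, after 557 bp, and HHF1 by FLR1, a drug exporter of the plasma membrane, after 1163 bp. The 3′ neighbours of HTZ1 and HHO1 were also in tandem, HRD1, a ubiquitin ligase of the endoplasmic reticulum, after 543 bp and TBF1, a telomeric repeat binding factor, after 606 bp.

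Gene order close to the histone genes was the same as in S288C at nearly every place. All 12 outer neighbours were the same ORFs, and 11 of the 12 gaps to them had equal length, the exception being HHT1-IPP1 with 371 bp in W303 and 370 bp in S288C. Within 10000 bp of the loci, 60 of 61 adjacent ORF pairs were adjacent in S288C too, beside 91.6% of the 5597 adjacent pairs of W303. Of these 60, 54 (90.0%) had a gap of equal length, beside 83.1% of the 5126 ORF pairs adjacent in both annotations. Most of the differences were at HHF1-HHT1, where 5 of the 10 shared gaps were equal, while every shared gap was equal around HTB1-HTA1, HTA2-HTB2, HHT2-HHF2 and HTZ1, and 11 of 12 around HHO1. They were small. HHF1-HHT1, HHT1-IPP1 and GRX7-MNN2 were each 1 bp longer in W303, DSF2-FLR1 was 1 bp shorter and YBR016W-KAP104 was 4 bp shorter, and near HHO1 the gap NAN1-KAP120 was 2 bp shorter. Beyond this reach the place of HHO1 on its chromosome differed more, with its left edge at chr16:479346 in W303 and chr16:308828 in S288C. Strain and assembly cannot be told apart as the source of such differences.

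The 1 pair of ORFs that was adjacent in W303 and not in S288C lay next to HHT1, and it marks a Ty element. Ty elements are the retrotransposons of yeast. The TKP/TY label of the W303 annotation marks genes with high similarity to gag-pol genes, the coding part of such elements. The S288C annotation gives whole elements, so lengths and distances of the 2 annotations are not to the same edges. In S288C the chromosome 2 pairs HTA2-HTB2 and HHF1-HHT1 lie between 2 Ty1 elements of the same strand, YBLWTy1-1 (5916 bp) 8441 bp to the left of HTA2 and YBRWTy1-2 (5917 bp) 2836 bp to the right of HHT1, with 32625 bp between them. As background, recombination between these 2 elements is known to form a circle that carries HTA2-HTB2, HHF1-HHT1 and the centromere when HTA1-HTB1 is deleted. In W303 the left element had a counterpart. Between PDR3 and UTP20 the annotation has 2 TKP/TY features, the nearer of which (chr2:227471-228397) ended 8795 bp from HTA2, and the space between these ORFs was 7199 bp against 7235 bp in S288C. To the right of HHT1 it had none. IPP1 and GRX7, a glutaredoxin gene, were 1494 bp apart in W303 (chr2:259776-261269) and 8749 bp apart in S288C, a difference of 7255 bp, and this space held a tRNA feature and no TKP/TY feature. In S288C it holds YBR012W-A and YBR012W-B, the genes of the Ty1 element, and YBR013C. The difference of 7255 bp is larger than the 5917 bp of the element, and YBR013C has no feature in this space in W303.

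The next TKP/TY feature to the right of HHT1 in W303 was 67832 bp away (chr2:326373-327695), between TCM62 and GIP1. There the space was 8610 bp in W303 and 2113 bp in S288C, which has no element at this place. GIP1 had 3 features in the W303 annotation, of which the first, of 1347 bp, borders this space, so its right edge is less certain. The interval between the TKP/TY features that flank the chromosome 2 histone genes was therefore 97975 bp in W303, against 32625 bp between whole elements in S288C. No strand was given for any of the 86 TKP/TY features of W303, so whether the flanking features share an orientation there could not be read. Whether the absence right of HHT1 is of the strain or of the assembly and its annotation cannot be told apart.

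**Figure D5:**
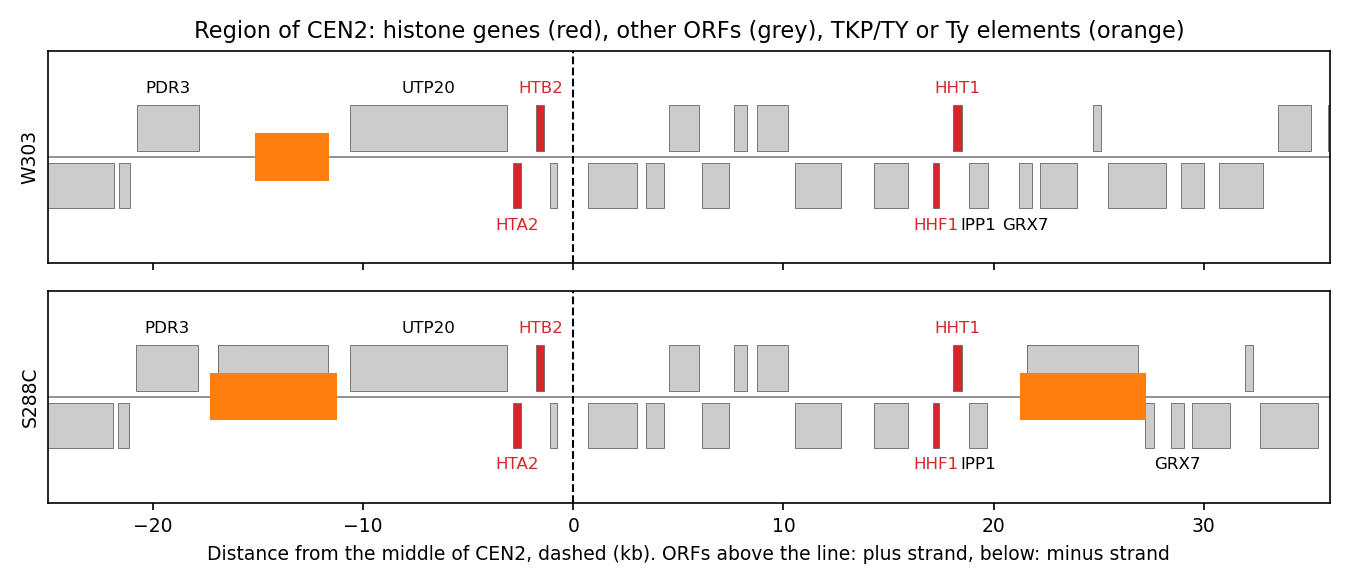
Chromosome 2 around CEN2 (dashed line) in W303 (top) and S288C (bottom), in kb from the middle of the centromere, each in its own coordinates, with ORFs above (plus strand) or below (minus strand) the line. Histone genes (red) lie at distances that agree within 1 bp, orange TKP/TY or Ty elements lie left of UTP20 in both, and the element between IPP1 and GRX7 is drawn in S288C only, where these ORFs are 8749 bp apart instead of 1494 bp.

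The chromosome 2 pairs were the histone genes closest to a centromere. HTB2 was 1319 bp and HTA2 2414 bp from CEN2 (chr2:240006-240122), on its left, and HHF1 was 17048 bp and HHT1 18007 bp from it, on its right. The centromere thus lay between the pairs, which were 18484 bp apart (18485 bp in S288C) with 9 ORFs between them in both annotations, ECM15 before CEN2 and NTH2, RER2, COQ1, GPI18, RCR1, UGA2, DSF2 and FLR1 after it. The 4 genes and CEN2 took 21348 bp from end to end. These were the 4 of 10 members within 20000 bp of a centromere, beside 5.67% of nuclear ORFs. Since 4 of the members share 1 location, this count rests on a single place in the genome. HTZ1 was 22600 bp from CEN15, HHF2 52099 bp and HHT2 53087 bp from CEN14, HHO1 246686 bp from CEN16, and HTB1 468797 bp and HTA1 470010 bp from CEN4. The median over nuclear ORFs was 215971 bp, so HTB1-HTA1 and HHO1 were farther than the median ORF.

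Distances to TKP/TY features ran from 8795 bp to 180799 bp in W303. They were shortest for HTA2 (8795 bp), HHT2 (9212 bp), HTB2 (9893 bp) and HHF2 (10299 bp), followed by HHF1 (28773 bp), HHT1 (29732 bp), HTB1 (30994 bp) and HTA1 (32207 bp). HHO1 (128063 bp) and HTZ1 (180799 bp) were farther than the median nuclear ORF, at 82859 bp, and the 8 core genes nearer. In S288C the same distances were 7979 bp for HHT2 and 9066 bp for HHF2, from YNLCTy2-1, and 30096 bp for HTB1 and 31309 bp for HTA1, from YDRCTy1-2. The annotations differed most at HHF1 and HHT1, which were 3893 bp and 2836 bp from an element in S288C. With this change the median over the 10 members was 29252.5 bp in W303 and 9302.5 bp in S288C. The element near HHT2 lay between NCE103 and YNL035C, which were 8042 bp apart in both annotations, and no element lay on the other side of HHT2-HHF2 on chromosome 14 in either. The TKP/TY feature nearest to HHT2 was 4041 bp and the S288C element 5297 bp, and that nearest to HTA2 was 927 bp against 5916 bp. Distances in W303 are thus to a shorter gag-pol feature and those in S288C to a whole element.

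Origins of replication lay close to several core genes in S288C. HTB1 was 278 bp from ARS428, HHF1 289 bp from ARS209 and HTB2 899 bp from ARS208, and their partners HTA1, HHT1 and HTA2 were 1491, 1247 and 1994 bp from the same origins. The median over 5258 genes was 10259 bp, a set that leaves out nearly all ORFs without a gene name. HHT2 and HHF2, at 7115 and 8202 bp from ARS1423, were also below the median, as was HTZ1 at 5375 bp from ARS1512, and HHO1 was at 19122 bp from ARS1614. ARS features of W303 are matches to the origin consensus, found by the authors. By these HTB1 was at 437 bp and HTB2 at 1406 bp, but HHF1 was at 17066 bp, since no match was listed near ARS209. The feature nearest to HTB2 and HHF1 (chr2:240093-240104) overlaps CEN2. It lies beyond ARS208 as seen from HTB2, so it is not the same site. HTZ1 was 3391 bp, HHF2 8427 bp, HHT2 9415 bp and HHO1 75330 bp from a W303 match. For HTZ1, HHT2-HHF2 and HHO1 this match lay on the opposite side of the genes from the nearest S288C origin. The 2 annotations therefore place most histone loci differently relative to an origin, and a consensus match is not a tested origin.

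A list of 44 genes that act on histones was used, and all 44 had a feature in W303. Presence is the usual case and is not particular to this list. Over the nuclear chromosomes 5584 ORFs of W303 matched an S288C gene by name, repeated names included, beside 6002 protein-coding genes in S288C. Of the 44 listed genes, 38 (86.4%) had the length in S288C, near the 90.5% of nuclear ORFs with a match by name. All 4 genes of the HIR complex, which represses histone genes outside S phase, kept their length, as did the 3 histone acetyltransferase genes and 6 of 6 genes for the transcription of histone genes, SPT10 among them. Of 14 chaperone genes 12 had the S288C length. The exceptions were VPS75, a chaperone of H3-H4, with 887 bp against 890 bp, and CHZ1, a chaperone of H2A.Z, with 483 bp against 462 bp. Of 14 genes on the SWR1 list, which includes subunits it shares with other complexes, 11 had it. VPS72 was 2433 bp against 2388 bp, SWC3 was 1917 bp against 1878 bp, and ACT1, actin, was 1083 bp against 1437 bp. Of the 3 genes for the centromeric histone, SCM3, the chaperone of CSE4, was 744 bp against 672 bp. VPS75 and ACT1 have 2 coding parts in S288C, an intron lying between them, and S288C lengths here include introns. HPC2 of the HIR complex also has 2 coding parts and was 1962 bp in both annotations.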

How the data were processed

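The authors deposited an annotation of the W303 genome, whose values are positions in bases, strands and notes (unit: other), with no counts or signal. According to the methods, they began with features from the Yeast Genome Annotation Pipeline (version not given in the sources used here), added ORFs found by BLASTn, names and size notes from S288C, consensus ARS matches and centromeres. The labels name R64 as build, whereas the methods describe mapping to W303. No library values were analysed, so no depth or replicate error applies, and no comparison between groups or test was made.

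Distances are the bases between feature edges. W303 ORFs were matched to S288C R64 (RefSeq) by systematic name, and no coordinate was converted. A divergent gap lies between adjacent ORFs on the minus and then the plus strand. Proteins were aligned globally (BLOSUM62, gap penalties 10 and 0.5). Codon shares used genes of 100 codons or more. Word and gap searches were tested on simulated data and recovered 200 of 200 planted words and 200 of 200 gaps. Named genes are the 10 members, CSE4, their neighbours, the nearest CEN and TKP/TY features, and listed regulators whose length differs. GRX7, MNN2, DSF2, YBR016W, KAP104, KAP120, PDR3, TCM62, GIP1, NCE103, YNL035C, YBR012W-A, YBR012W-B, YBR013C, the ORFs between HTB2 and HHF1, the origins and the range of 600 to 900 bp were chosen after their values were seen. HPC2 was also named after its length was seen. The members and lists were chosen with earlier results of these data known. Analyses used python 3.11.15, numpy 2.4.6, biopython 1.88 and matplotlib 3.10.9.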

Additional observations from a re-analysis of the deposited data

How the results depend on the processing

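No paired analysis was possible because no library values were analysed and no result comes from a test. With the S288C annotation the share of shorter divergent gaps was 66.9% for HTA2-HTB2, 62.1% for HHF1-HHT1, 76.0% for HTB1-HTA1 and 65.2% for HHT2-HHF2. There the gap of HTB1-HTA1, at 817 bp, lay above the upper quartile of 801.5 bp. The median distance of the 10 members to the centromere, 37349.5 bp, was 37588 bp from midpoint to midpoint and 37159.5 bp in S288C. That to a TKP/TY feature was 29896.8 bp from midpoint to midpoint and 9302.5 bp with S288C mobile elements. The interval between the elements that flank the chromosome 2 pairs was 32625 bp in S288C, an alternative chosen after seeing the data. Identity of HHT1 and CSE4 was 52.9% of the shorter protein. The median share of preferred codons, 69.4%, was 62.7% with all genes as reference, by which HHO1 reached 31.4% and HTZ1 54.1% and the order of copies turned for H2A and H3. The UAS word with the fourth letter left free gave 13 matches. The alternative of TKP/TY features on the same strand was not run, as none has a strand. Lengths, neighbours, the identity of copies, the split of gap bases and the regulator list gave the same result under their alternatives. An annotation limits these results to what was assembled and named.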
